A study of Mus musculus with 11 samples.

Results

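The expression of 40 genes that build and drive the contractile apparatus of skeletal muscle was measured by bulk RNA sequencing in whole neonatal skin of 11 Foxp3-DTR mice. The genes were listed by name as a measure of the muscle that each piece of skin carried, with earlier results of these data known, and all 40 were found among the 49315 genes of the count table. Of these, 38 passed the filter on low counts together with 18375 genes in all, and Myl2 and Myl3 did not. All 11 mice carried the human diphtheria toxin receptor under control of the Foxp3 gene, so that diphtheria toxin (DT) removes regulatory T cells (Tregs). The 2 control mice received PBS, and the other three groups had 3 mice each. Mice labelled EarlyDT received DT on P6 and P8 and were taken on P9 (ΔETreg), mice labelled LateDT received it on P10 and P12 and were taken on P13 (ΔLTreg), and mice labelled FullDT received it on P6, P8, P10 and P12 and were also taken on P13 (ΔTreg). These days come from the study's text. It describes controls as matched for age to the group compared. The labels do not give the age of either of the 2 control mice, and both served here in every comparison with control. Age and depletion cannot be told apart where ΔETreg is compared with ΔLTreg or ΔTreg, and the same holds for a comparison with control to the extent that a control mouse was younger or older than the group compared.

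A skeletal muscle fibre contracts when heads of myosin heavy chain pull on actin filaments, and the troponin and tropomyosin proteins on the actin filament make this pull depend on calcium. Muscle uses several myosin heavy chain genes in turn. Myh3 encodes the embryonic chain and Myh8 the perinatal (neonatal) chain, and in the weeks after birth they give way to the adult fast chains encoded by Myh2 (type IIa), Myh1 (type IIx) and Myh4 (type IIb), while Myh7 encodes the chain of slow fibres. Many other contractile proteins also exist as fast and slow isoforms, and Actc1, the cardiac α-actin, is used by developing skeletal muscle before Acta1, the skeletal α-actin, takes its place. The skin of the mouse trunk carries a sheet of mostly fast skeletal muscle beneath the fat layer, the panniculus carnosus, and a skin biopsy can hold varying amounts of it.

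The fast and developmental myosin heavy chain genes lie side by side on chromosome 11 (GRCm38), from the start of Myh3 at 67078300 to the end of Myh8 at 67308634, with Myh2, Myh1 and Myh4 between them, whereas Myh7 lies on chromosome 14 (54970684 to 54994626). Their coding sequences are similar, so it matters for every value below that reads can tell them apart. In an alignment of the coding sequences of the GENCODE M21 transcripts, Myh4 was identical to Myh8 at 87.9% of aligned bases, to Myh1 at 90.1% and to Myh7 at 77.4%. Even so, of all stretches of 150 bases in each transcript, the length of 1 sequencing read, 2.49% in Myh1, 2.06% in Myh2, 0.533% in Myh8, 0.511% in Myh4 and 0% in Myh3 and Myh7 were found letter for letter in a transcript of another of these 6 genes. The 60 coding bases at which Myh4 and Myh8 differed most are printed here to make this visible, with capitals where a base differs from Myh4 (coding bases 1831 to 1890 of Myh4).
Myh4: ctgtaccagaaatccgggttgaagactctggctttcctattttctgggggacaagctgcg
Myh1: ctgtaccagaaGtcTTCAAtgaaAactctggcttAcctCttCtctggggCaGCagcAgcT
Myh2: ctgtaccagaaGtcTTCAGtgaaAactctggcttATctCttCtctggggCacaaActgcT
Myh8: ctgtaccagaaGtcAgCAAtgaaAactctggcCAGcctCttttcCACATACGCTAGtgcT
Myh3: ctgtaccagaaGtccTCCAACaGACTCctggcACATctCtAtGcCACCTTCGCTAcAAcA
Myh7: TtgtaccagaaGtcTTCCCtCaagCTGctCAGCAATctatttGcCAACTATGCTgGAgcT
In this stretch the perinatal chain Myh8 differed from Myh4 at 23 bases, the embryonic chain Myh3 at 33, Myh1 at 15 and Myh2 at 14. Because the stretch was chosen for its differences between Myh4 and Myh8, these numbers do not rank the genes by similarity. Over all aligned coding bases Myh4 was identical to Myh2 at 88.2%, close to the 87.9% for Myh8, and to Myh3 at 80.3%.

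The 250 bases before the start site are shown for the 3 myosin heavy chain genes with the largest fold changes between ΔTreg or ΔLTreg and control, taken from RefSeq (GRCm38.p6). Capitals mark matches, on either strand, to the E-box (CANNTG), which myogenic factors such as Myod1 and Myog bind, to the MEF2 motif and to the CArG motif bound by serum response factor. None of the matches printed overlapped another.
Myh4 (chr11:67237562-67237811, plus strand): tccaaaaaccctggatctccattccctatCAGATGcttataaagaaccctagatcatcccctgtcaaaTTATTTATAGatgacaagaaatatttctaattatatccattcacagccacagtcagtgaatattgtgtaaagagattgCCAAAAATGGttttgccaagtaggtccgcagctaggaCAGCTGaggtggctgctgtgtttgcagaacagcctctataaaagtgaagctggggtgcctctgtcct
Myh8 (chr11:67276874-67277123, plus strand): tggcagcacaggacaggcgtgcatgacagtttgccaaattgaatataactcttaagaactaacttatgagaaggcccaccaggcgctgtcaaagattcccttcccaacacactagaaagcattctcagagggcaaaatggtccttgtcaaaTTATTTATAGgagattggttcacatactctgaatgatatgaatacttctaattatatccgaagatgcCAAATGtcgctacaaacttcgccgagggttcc
Myh3 (chr11:67078050-67078299, plus strand): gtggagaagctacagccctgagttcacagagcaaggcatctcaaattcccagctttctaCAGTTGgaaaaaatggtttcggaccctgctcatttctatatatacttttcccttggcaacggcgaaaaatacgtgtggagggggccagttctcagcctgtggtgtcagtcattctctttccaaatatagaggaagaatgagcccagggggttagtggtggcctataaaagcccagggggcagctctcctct
The same MEF2 match stood 182 bases before the start in Myh4, 99 bases before it in Myh8 and 211 bases before it in Myh1, and none was found in this window of Myh3. RefSeq promoters were matched for 33 of the 40 genes, with 39 start sites, and not for Tnnt3, Myoz1, Tnni2, Actn3, Mylk2, Neb or Myod1. Of these 39 windows, 34 (87.2%) held an E-box, 6 (15.4%) a MEF2 match and 4 (10.3%) a CArG match. Over all 32851 promoters the shares were 66.2%, 2.92% and 1.47%. The 6 windows with a MEF2 match were those of Myh1, Myh4, Myh8, Myoz2, Pvalb and Ttn, and the CArG matches were in Acta1, Actc1, Myh4 and Myl3.

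Libraries held 23377571 to 34159435 counts. Foxp3, whose cells DT removes, had 9 to 23 counts per library, and the groups overlapped. Markers of keratinocytes, fibroblasts, endothelium and smooth muscle were present in every library, as whole skin holds these cells. The summed level of 7 smooth muscle markers was 551 to 684 CPM, a gene's counts relative to the TMM-scaled library size over all libraries. The genes that smooth muscle shares with skeletal muscle (Tpm1, Tpm2 and Des) can therefore carry both sources, and the part of each was not tested. Of 5 cardiac muscle markers, Myh6, Myl7, Nppa, Ryr2 and Tnni3, 3 were under 1 CPM in every library and the sum was 1.16 to 3.56 CPM. The summed level of 4 leukocyte markers was 24.1 to 46.1 CPM in the other three groups and 92.9 to 116 CPM in ΔTreg skin, and that of 5 fibroblast markers was 7270 to 8240 CPM in ΔTreg against 12900 and 15300 CPM in control skin. Most of the fibroblast sum came from the collagen genes Col1a1 and Col3a1. By edgeR, the log2 fold change in ΔTreg against control was -1.025 for Col1a1, -0.78 for Col3a1 and -0.94 for Lum. It was -0.17 for Dcn and -0.23 for Pdgfra. In ΔLTreg skin the fibroblast sum ranged from 5940 to 12900 CPM and that of 6 adipocyte markers from 40.3 to 101 CPM, compared with 13.1 to 70.3 CPM of adipocyte markers in all other mice. The part of these cell types in the muscle results was not tested.

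Muscle transcripts together were on average near the control level in ΔETreg skin and most abundant, and most uneven, in ΔLTreg skin. The summed level of the 40 genes was 4205 and 4290 CPM in the control mice. It was 4095, 3673 and 5280 CPM in ΔETreg mice, 10310, 4923 and 13570 CPM in ΔLTreg mice and 5827, 4312 and 7184 CPM in ΔTreg mice. All 3 ΔLTreg mice and all 3 ΔTreg mice lay above both controls, but ΔLTreg replicate 2 and ΔTreg replicate 2 did so by little, and the ΔLTreg and ΔTreg ranges overlapped. ΔETreg replicate 3, at 5280 CPM, also lay above both controls, and above ΔLTreg replicate 2 and ΔTreg replicate 2. The group means were 1.02 times the control mean in ΔETreg, 2.26 times in ΔLTreg and 1.36 times in ΔTreg. In bulk skin, more muscle in the biopsy and more of these transcripts per fibre cannot be told apart.

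**Figure D1:**
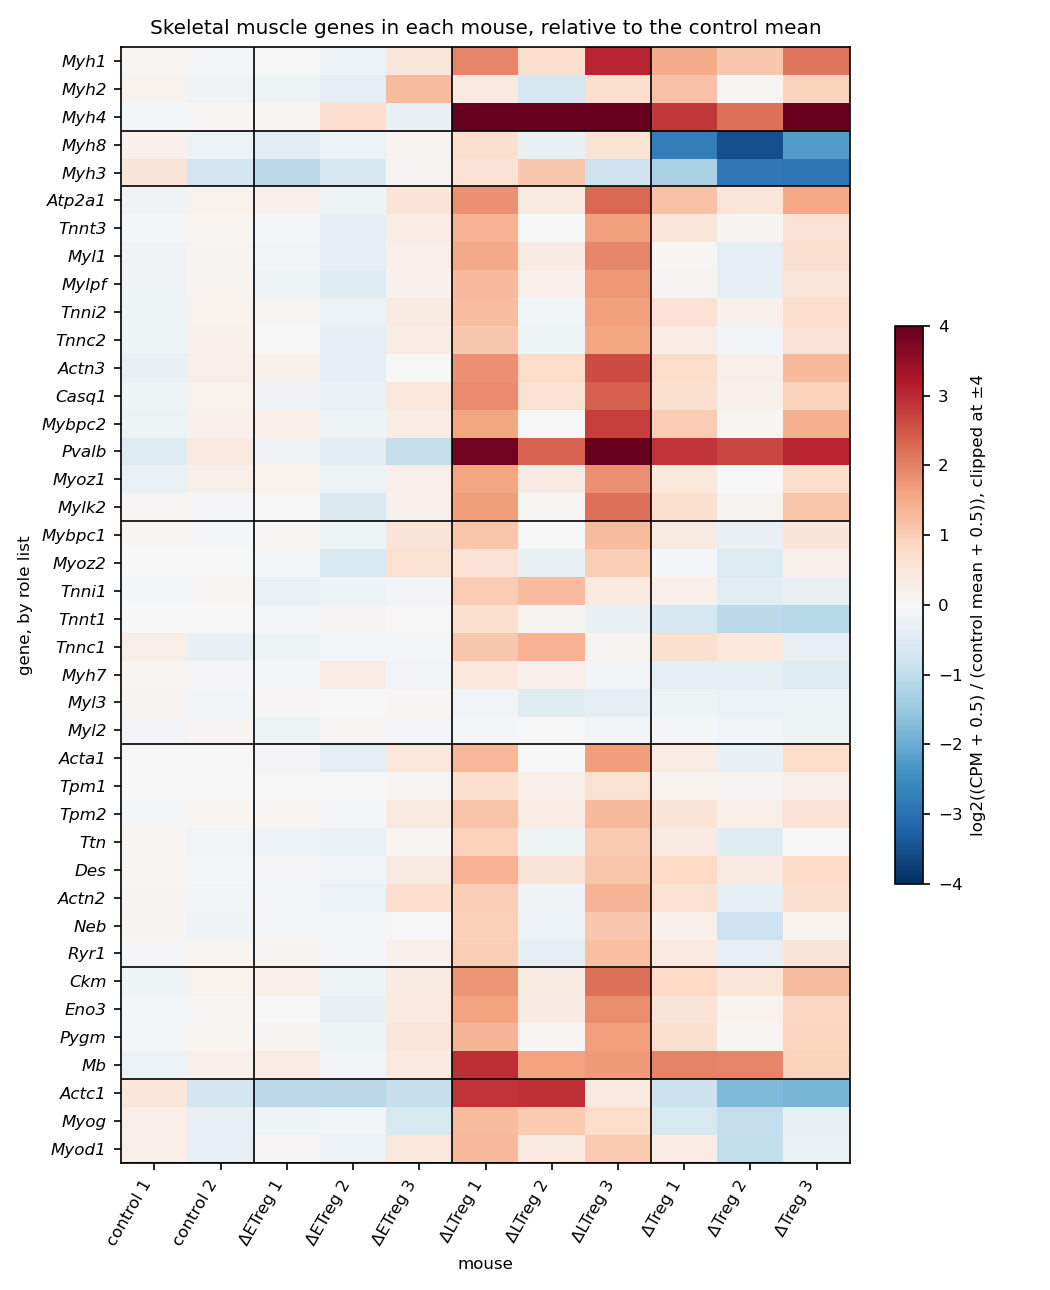
Each row is 1 of the 40 genes, each column 1 mouse, and the colour is the log2 ratio of the gene's CPM plus 0.5 to the control mean plus 0.5, clipped at ±4 (red higher, blue lower); black lines separate the groups and the role lists. In ΔLTreg mice 1 and 3 nearly all rows are red while ΔLTreg mouse 2 is pale except for a few genes, and in the 3 ΔTreg mice Myh8 and Myh3 are blue while Myh4 and Pvalb are red.

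Single genes were tested with the quasi-likelihood F-test of edgeR, and p-values were adjusted by the Benjamini-Hochberg method over the 18375 genes tested, with a threshold of 0.05. In ΔETreg against control, 0 of 38 muscle genes passed in either direction (0 at an unadjusted p under 0.05), where 0.00544% of all genes passed as higher and 0% as lower, and DESeq2 called 0 as well (1 at an unadjusted p under 0.05). Their median log2 fold change was 0.05. In ΔLTreg against control, 8 genes rose (Myh4, Mb, Actn3, Casq1, Pvalb, Des, Tpm1 and Tpm2) and 0 fell, against 1.86% and 2.69% of all genes. The fold change was above 0 for 38 of 38 genes, with a median of 1.17 on the log2 scale, while the median over all genes tested was within 0.01 of 0. In ΔTreg against control, 3 rose (Myh4, Mb and Pvalb) and 3 fell (Myh3, Myh8 and Tnnt1), against 12.1% and 9.39% of all genes, and the median was 0.377. The number of calls in ΔLTreg against control rested on single mice: it was 25 without ΔLTreg replicate 2, 1 without control replicate 1 and 2 without control replicate 2.

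Between the groups taken on P13, 13 muscle genes were lower in ΔTreg than in ΔLTreg skin and 0 were higher, where 6.11% of all genes passed as lower and 10.7% as higher. These were Myh3, Myh8, Myh4, Myh7, Actc1, Myod1, Myog, Casq1, Myl1, Mylpf, Tpm1, Tnni1 and Tnnt1, and the fold change was below 0 for 37 of 38 genes with a median of -0.871. Without ΔLTreg replicate 2 the number was 32, without ΔLTreg replicate 1 it was 7, and without ΔTreg replicate 1 or 2 it was 8 or 7. In ΔLTreg against ΔETreg, which differ in age as well, 18 genes were higher and 0 lower, against 3.12% and 3.27% of all genes. Besides the 8 genes that rose against control, these were Myh1, Actc1, Myog, Ckm, Eno3, Myl1, Mylk2, Mylpf, Myoz1 and Tnni1, and the median was 1.16. This count was 29 without ΔLTreg replicate 2 and 4, 6 and 9 without ΔETreg replicate 2, 1 and 3. In ΔTreg against ΔETreg, 4 genes were higher (Myh1, Myh4, Mb and Pvalb) and 3 lower (Myh8, Myh7 and Tnnt1), against 13.2% and 9.81% of all genes, with a median of 0.295. That count was 11 without ΔLTreg replicate 2 and 4 without ΔETreg replicate 2. The call of Myh7 rested on 3, 4 and 2 raw counts in ΔTreg mice against 8, 15 and 6 in ΔETreg mice. It was lost with DESeq2 (adjusted p = 0.144) and in 4 of the 11 fits without 1 mouse.

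**Figure D2:**
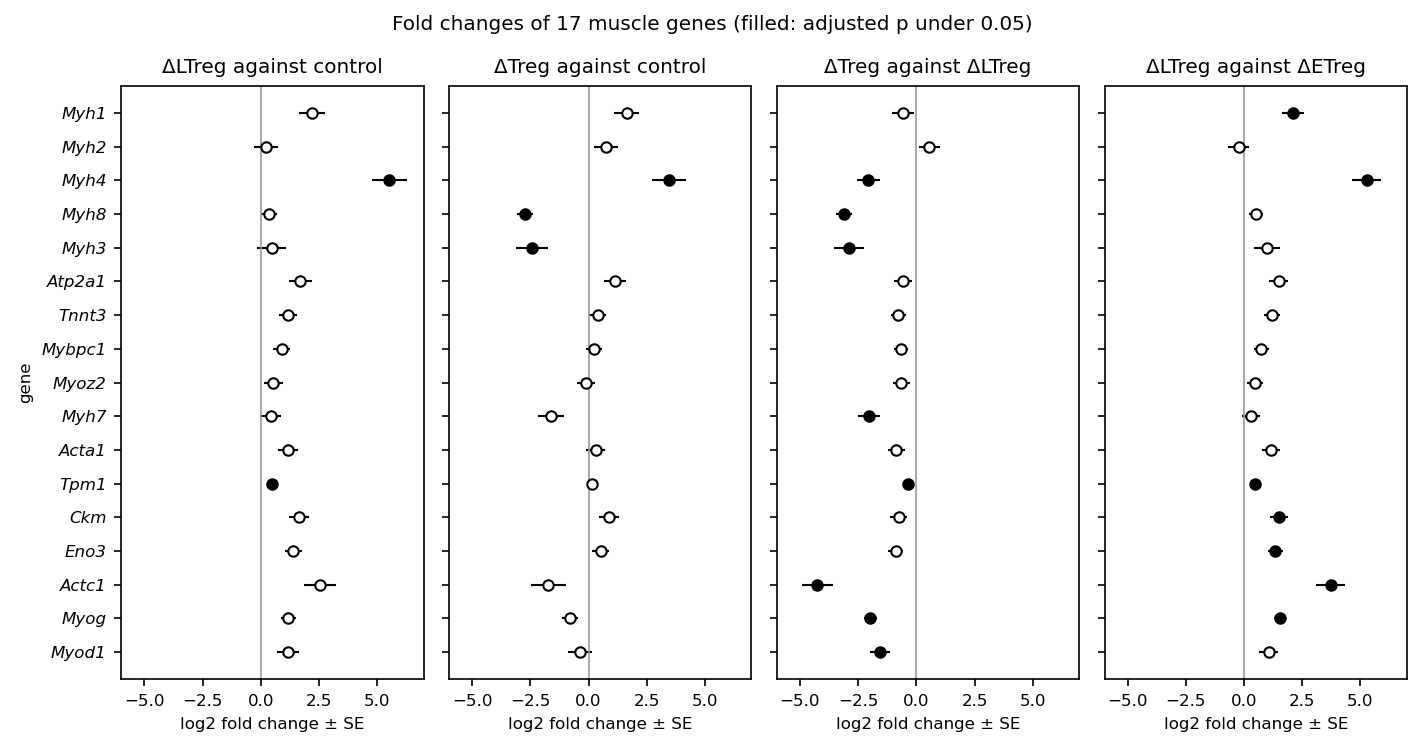
Log2 fold changes (x axis) of 17 muscle genes (rows) in 4 comparisons, with bars of 1 standard error from edgeR and filled points for an adjusted p under 0.05. Myh4 lies far to the right against control in both P13 groups, Myh8 and Myh3 lie to the left in ΔTreg against control and against ΔLTreg, and Actc1 stands at 2.53 in ΔLTreg and -1.73 in ΔTreg against control, both unfilled.

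The make-up of the myosin heavy chains differed between groups, most of all in the shares of Myh8, Myh1 and Myh4. Counts per kb of transcript were expressed as a share of the sum over the 6 genes. More muscle of the same make-up leaves such a share unchanged, but whether biopsies with more muscle held the same kind of muscle was not tested. The perinatal chain Myh8 made up 45.8% and 42.5% of the sum in the 2 control mice and 38.2%, 45.2% and 35.9% in ΔETreg mice. It made up 24.8%, 28.2% and 13.3% in ΔLTreg mice and 4.18%, 3.47% and 4.05% in ΔTreg mice. Thus ΔETreg, ΔLTreg and ΔTreg mice did not overlap. The share of Myh1 moved the other way, from 42.5% and 47.0% in control and 44.5% to 51.3% in ΔETreg to 61.8%, 56.1% and 75.9% in ΔLTreg and 80.0%, 85.8% and 84.3% in ΔTreg. Myh4 made up 0.454% and 0.601% in control mice and 0.312% to 1.01% in ΔETreg mice. In ΔLTreg mice its share was 8.27%, 8.40% and 7.82%, nearly the same in the 3 mice although their summed muscle level ranged from 4923 to 13570 CPM, and in ΔTreg mice it was 2.63%, 2.41% and 4.48%. Myh2 held 2.84% to 4.27% in ΔLTreg mice and 7.07% to 16.2% in all others. The share of Myh3 was uneven within groups, at 2.34% and 1.11% in control, 0.956% to 1.44% in ΔETreg, 0.97%, 3.01% and 0.199% in ΔLTreg and 0.0756% to 0.442% in ΔTreg mice. These shares are a description of each mouse and carry no test.

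**Figure D3:**
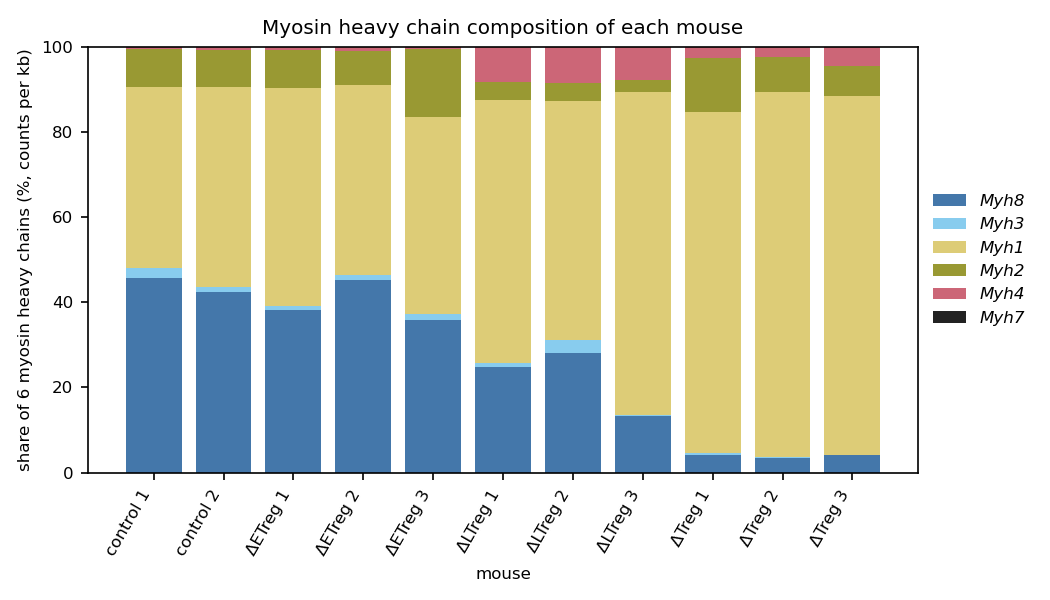
Each bar is 1 mouse, and the colours give the share (%, counts per kb of transcript) of 6 myosin heavy chain genes in their sum. The blue part (Myh8) takes 35.9% to 45.8% in control and ΔETreg mice, 13.3% to 28.2% in ΔLTreg mice and 3.47% to 4.18% in ΔTreg mice, and the red part (Myh4) is widest in the 3 ΔLTreg mice.

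Of the developmental chains, Myh8 was low in all 3 ΔTreg mice and in no other. Its level was 369 and 285 CPM in control mice, 244, 286 and 353 CPM in ΔETreg, 514, 264 and 476 CPM in ΔLTreg and 48.0, 28.3 and 69.1 CPM in ΔTreg mice. No ΔTreg mouse overlapped any mouse of the other groups. In the edgeR fit with Benjamini-Hochberg adjustment, Myh8 fell in ΔTreg against control (log2 fold change -2.75 ± 0.34 SE, adjusted p = 0.000267), to 0.148 of the control level. It was also lower than in ΔLTreg (-3.11 ± 0.33, adjusted p = 0.000101) and than in ΔETreg (-2.60 ± 0.32, adjusted p = 0.00018). In ΔLTreg against control its log2 fold change was 0.36 ± 0.34 (adjusted p = 0.625). Myh3, the embryonic chain, stood at 18.5 and 7.33 CPM in control, 5.99, 7.89 and 13.8 CPM in ΔETreg, 19.7, 27.7 and 7.01 CPM in ΔLTreg and 4.97, 1.37 and 1.27 CPM in ΔTreg mice. The ΔTreg values lay below all others. Myh3 fell in ΔTreg against ΔLTreg (-2.91 ± 0.64, adjusted p = 0.00983) and against control (-2.43 ± 0.69, adjusted p = 0.0282), and the second call was lost without control replicate 1 (-1.61, adjusted p = 0.214), without ΔTreg replicate 2 (adjusted p = 0.0976) or 3 (adjusted p = 0.0913) and with DESeq2 (adjusted p = 0.0582).

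Among the adult fast chains, Myh4 (type IIb) showed the widest change. It had 3.57 and 3.94 CPM in the controls and 4.01, 6.25 and 3.00 CPM in ΔETreg mice, compared with 168, 77.1 and 274 CPM in ΔLTreg and 29.6, 19.3 and 74.8 CPM in ΔTreg mice. In raw counts this is 102 and 99 in control mice and 5622, 1967 and 8758 in ΔLTreg mice. The highest ΔTreg mouse stayed just under the lowest ΔLTreg mouse, and both groups were clear of the other mice. With edgeR and Benjamini-Hochberg adjustment, Myh4 rose 46.1-fold in ΔLTreg against control (log2 fold change 5.53 ± 0.76 SE, adjusted p = 0.00278) and also in ΔTreg (3.46 ± 0.73, adjusted p = 0.00624). The second call was lost without control replicate 2 (3.52, adjusted p = 0.0606). Myh4 was lower in ΔTreg than in ΔLTreg (-2.07 ± 0.50, adjusted p = 0.0165), a call that was lost with DESeq2 (adjusted p = 0.0513), with edgeR on the 2 groups alone (adjusted p = 0.0625), without ΔTreg replicate 1 (adjusted p = 0.0739) and without ΔTreg replicate 2 (adjusted p = 0.0565).

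Myh1 (type IIx), the most abundant heavy chain in every mouse but 2, had 338 and 312 CPM in control and 324, 278 and 447 CPM in ΔETreg mice. It had 1265, 521 and 2690 CPM in ΔLTreg and 908, 693 and 1425 CPM in ΔTreg mice. Every mouse of both P13 groups exceeded every control and ΔETreg mouse. Its log2 fold change against control in the edgeR fit was 2.20 ± 0.56 SE in ΔLTreg (adjusted p = 0.0511) and 1.64 ± 0.55 in ΔTreg (adjusted p = 0.0546), just short of the threshold. Without ΔLTreg replicate 2 the first passed (adjusted p = 0.00604). Myh1 was higher in ΔLTreg than in ΔETreg (2.09 ± 0.48, adjusted p = 0.0283). This call was lost without any 1 of the 3 ΔETreg mice (adjusted p up to 0.123) and with edgeR on the 2 groups alone (adjusted p = 0.083). Myh1 was also higher in ΔTreg than in ΔETreg (1.53 ± 0.47, adjusted p = 0.037), a call lost in 7 of the 11 fits without 1 mouse. Exons of Myh1 overlap Myhas, a gene on the opposite strand, and the sources used here do not state whether counting used strand. Myhas itself had 16 to 261 counts against 7823 to 85909 of Myh1. Myh2 (type IIa) had 70.8 and 58.4 CPM in control, 56.4, 50.1 and 158 CPM in ΔETreg, 84.5, 39.6 and 101 CPM in ΔLTreg and 145, 66.0 and 120 CPM in ΔTreg mice, and it passed no comparison (smallest adjusted p = 0.333, ΔTreg against control, log2 fold change 0.77 ± 0.52).

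**Figure D4:**
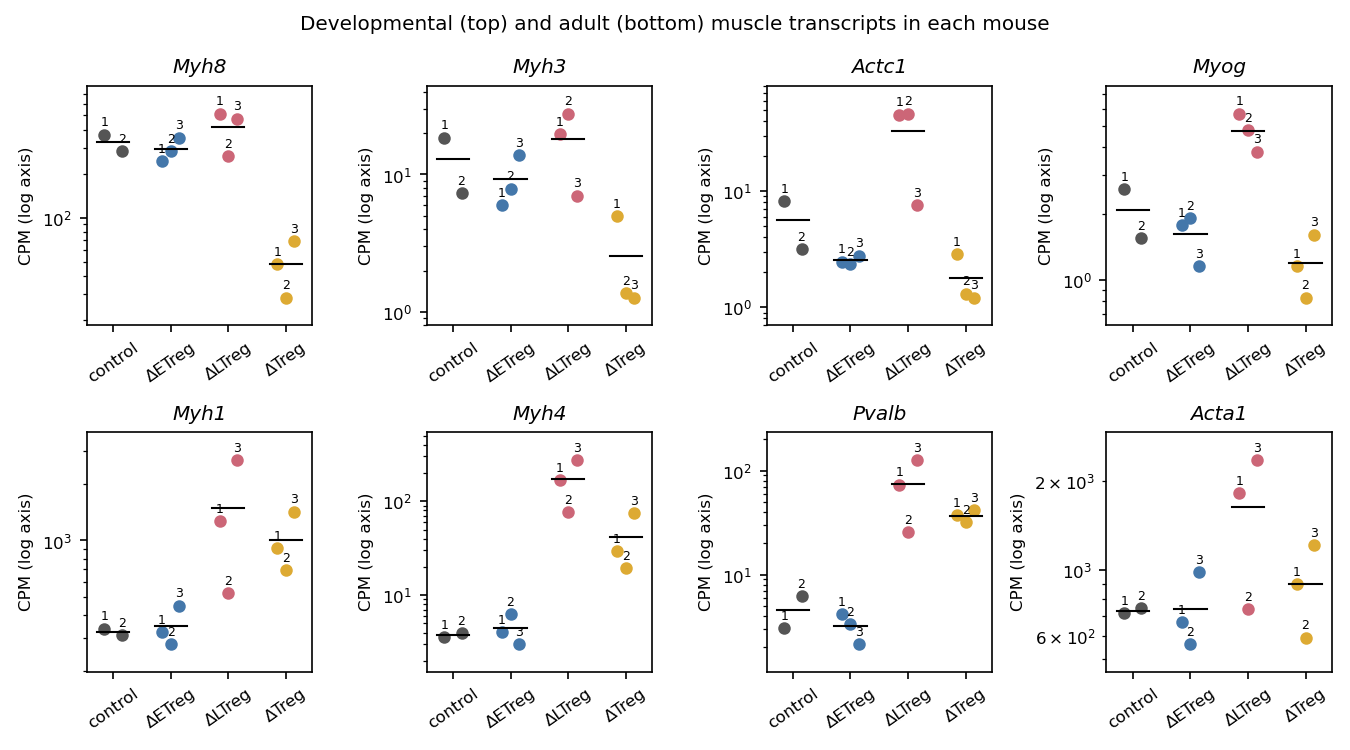
Points are single mice (numbered by replicate), lines are group means, and the y axes give CPM on a log scale. Myh8, Myh3, Actc1 and Myog (top) have their lowest means in ΔTreg mice, while Myh1, Myh4 and Pvalb (bottom) are higher in every ΔLTreg and ΔTreg mouse than in every control and ΔETreg mouse.

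The developmental actin and the regulators of myogenesis were highest in ΔLTreg skin. Actc1 had 8.20 and 3.15 CPM in control mice, 2.47, 2.33 and 2.79 CPM in ΔETreg, 45.5, 46.6 and 7.58 CPM in ΔLTreg and 2.87, 1.31 and 1.21 CPM in ΔTreg mice. ΔLTreg replicates 1 and 2 were far above the rest, and replicate 3, the mouse with the most muscle transcripts in all, lay between the 2 controls. Tested with edgeR and Benjamini-Hochberg adjustment, Actc1 was lower in ΔTreg than in ΔLTreg (log2 fold change -4.26 ± 0.66 SE, adjusted p = 0.00123) and higher in ΔLTreg than in ΔETreg (3.72 ± 0.64, adjusted p = 0.00787). Against control neither P13 group passed (2.53 ± 0.68 in ΔLTreg, adjusted p = 0.0624, and -1.73 ± 0.75 in ΔTreg, adjusted p = 0.127). As a share of Actc1 and Acta1 together, per kb, Actc1 took 2.40%, 5.84% and 0.316% in ΔLTreg mice and 0.0977% to 1.11% in all other mice.

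Myog, the factor that drives differentiation of myoblasts, had 2.59 and 1.55 CPM in control, 1.78, 1.91 and 1.16 CPM in ΔETreg, 5.69, 4.78 and 3.82 CPM in ΔLTreg and 1.16, 0.831 and 1.61 CPM in ΔTreg mice. All 3 ΔLTreg mice were above every other mouse. It was higher in ΔLTreg than in ΔETreg (log2 fold change 1.55 ± 0.27 SE, adjusted p = 0.00906 by edgeR) and lower in ΔTreg than in ΔLTreg (-1.99 ± 0.28, adjusted p = 0.000652). Against control ΔLTreg just missed the threshold (1.19 ± 0.30, adjusted p = 0.0511). That comparison passed with DESeq2 (adjusted p = 0.00983), with DESeq2 size factors (adjusted p = 0.0495) and with both other filters. It did not pass with library size only (adjusted p = 0.0567) or with edgeR on the 2 groups alone (adjusted p = 0.144). Myod1, which commits cells to the muscle lineage, had 4.41, 2.04 and 3.60 CPM in ΔLTreg, 1.93, 0.505 and 1.14 CPM in ΔTreg and 1.08 to 2.19 CPM in control and ΔETreg mice. Its only call was ΔTreg below ΔLTreg (-1.56 ± 0.42, adjusted p = 0.0283 by edgeR), which was lost without ΔLTreg replicate 1 (adjusted p = 0.0846) or 3 (adjusted p = 0.0532), without ΔTreg replicate 2 (adjusted p = 0.0931) or 3 (adjusted p = 0.0852) and with edgeR on the 2 groups alone (adjusted p = 0.0658).

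Genes of fast fibres were above control in the fit in both P13 groups, 12 of 12 in each, but few passed the test. In ΔLTreg against control 3 of 12 rose (Actn3, Casq1 and Pvalb), with a median log2 fold change of 1.54 over the list, where 1.86% of all genes rose. In ΔTreg against control 1 rose (Pvalb), with a median of 0.556, where 12.1% of all genes rose. The call of Actn3 was lost with DESeq2, with edgeR on the 2 groups alone and in 10 of the 11 fits without 1 mouse, in all but that without ΔLTreg replicate 2. Pvalb, the calcium buffer of fast fibres, had 3.05 and 6.18 CPM in control and 4.18, 3.35 and 2.14 CPM in ΔETreg mice, against 73.6, 25.8 and 126 CPM in ΔLTreg and 37.2, 32.1 and 42.0 CPM in ΔTreg mice. The P13 mice were all above the others, and the 3 ΔTreg mice fell within the ΔLTreg range. Pvalb, by edgeR with Benjamini-Hochberg adjustment, rose in ΔLTreg (log2 fold change 4.05 ± 0.61 SE, adjusted p = 0.00528) and in ΔTreg (3.02 ± 0.60, adjusted p = 0.00437). The call in ΔLTreg was lost without control replicate 1 (adjusted p = 0.0649) and with edgeR on the 2 groups alone (adjusted p = 0.0868). Pvalb also marks some neurons, and its source was not tested.

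Atp2a1, the calcium pump of fast fibres, had 156 and 189 CPM in control, 193, 152 and 253 CPM in ΔETreg, 613, 220 and 848 CPM in ΔLTreg and 389, 242 and 499 CPM in ΔTreg mice. Its log2 fold change was 1.70 ± 0.48 SE in ΔLTreg (adjusted p = 0.0718 by edgeR) and 1.13 ± 0.47 in ΔTreg (adjusted p = 0.113) against control, and its exons overlap those of Rabep2 on the opposite strand. Tnnt3, the fast troponin T, had 170 and 189 CPM in control, 171, 136 and 220 CPM in ΔETreg, 469, 183 and 561 CPM in ΔLTreg and 244, 192 and 270 CPM in ΔTreg mice. Here ΔLTreg replicate 2 was inside the control range, and no comparison passed (log2 fold change 1.18 ± 0.38 in ΔLTreg against control, adjusted p = 0.108 by edgeR). Casq1, the calcium store protein of the sarcoplasmic reticulum, rose in ΔLTreg (1.81 ± 0.43, adjusted p = 0.0403 by edgeR), and was lower in ΔTreg than in ΔLTreg (-1.19 ± 0.36, adjusted p = 0.046), but each call was lost in 10 of the 11 fits that left out 1 mouse. Both calls of Casq1 were also lost with DESeq2 (adjusted p = 0.102 and 0.142) and with edgeR on the 2 groups alone (adjusted p = 0.183 and 0.103). The light chains Myl1 and Mylpf were lower in ΔTreg than in ΔLTreg (log2 fold changes -1.24 and -1.10, adjusted p = 0.0343 and 0.0438 by edgeR). These calls were lost in 5 and 9 of the 11 fits that left out 1 mouse. They were also lost with DESeq2 (adjusted p = 0.0935 and 0.107) and with edgeR on the 2 groups alone (adjusted p = 0.092 and 0.1). The remaining fast isoforms, the kinase Mylk2, the troponins Tnni2 and Tnnc2, the Z-disc proteins Myoz1 and Actn3 and the myosin-binding protein Mybpc2, had log2 fold changes in ΔLTreg against control from 1.01 for Tnnc2 to 1.93 for Actn3.

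Of the 8 slow-fibre genes 6 were tested, and all 6 had fold changes above 0 in ΔLTreg against control (median 0.716, 0 called) and below 0 in ΔTreg against ΔLTreg (median -1.108). In the latter 3 were called lower (Myh7, Tnni1 and Tnnt1), against 6.11% of all genes. In ΔTreg against control 2 were above and 4 below 0 (median -0.141), and 1 fell (Tnnt1) against 9.39% of all genes. Myh7, the slow heavy chain, had 0.0618 to 0.596 CPM over all mice, at most 0.0769% of the 6 heavy chains, and Myl2 and Myl3, the slow light chains, reached at most 0.12 and 0.315 CPM. Myh7 had 0.350 and 0.279 CPM in control, 0.596, 0.431 and 0.251 CPM in ΔLTreg and 0.129, 0.119 and 0.0618 CPM in ΔTreg mice. In the edgeR fit, adjusted by Benjamini-Hochberg, it was lower in ΔTreg than in ΔLTreg (log2 fold change -2.04 ± 0.48 SE, adjusted p = 0.0143), a call lost without ΔLTreg replicate 1 (adjusted p = 0.0518) or ΔTreg replicate 3 (adjusted p = 0.063) and with DESeq2 (adjusted p = 0.0683). Tnnt1, the slow troponin T, had 2.66 and 2.59 CPM in control, 2.51, 2.86 and 2.57 CPM in ΔETreg, 4.41, 2.90 and 2.07 CPM in ΔLTreg and 1.46, 1.01 and 0.927 CPM in ΔTreg mice, the lowest values of all. It fell in ΔTreg against control (-1.24 ± 0.30, adjusted p = 0.0146), although not without control replicate 1 (adjusted p = 0.0592) or 2 (adjusted p = 0.0686) or ΔTreg replicate 2 (adjusted p = 0.0528) or 3 (adjusted p = 0.0516), and was lower than in ΔLTreg (-1.49 ± 0.27, adjusted p = 0.00323).

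Tnni1, the slow troponin I, which fetal muscle also uses, had 6.20 and 6.77 CPM in control, 5.33, 5.56 and 5.96 CPM in ΔETreg, 13.5, 16.2 and 8.58 CPM in ΔLTreg and 7.55, 4.66 and 5.19 CPM in ΔTreg mice. ΔLTreg replicate 2, with the least muscle of its group, had the most Tnni1. It was lower in ΔTreg than in ΔLTreg (log2 fold change -1.15 ± 0.22 SE, adjusted p = 0.00498 by edgeR). Tnnc1, the slow troponin C, reached 1.31 and 1.77 CPM in ΔLTreg replicates 1 and 2 and 0.438 CPM in replicate 3, and passed no comparison. Mybpc1 and Myoz2 were listed as slow isoforms and were the most abundant of that list. Both were highest in ΔLTreg replicate 3, the mouse with the most muscle transcripts, but Myoz2 in ΔLTreg replicate 2 was below both controls. Mybpc1 had 92.1 and 85.5 CPM in control, 93.1, 76.6 and 127 CPM in ΔETreg, 194, 87.6 and 214 CPM in ΔLTreg and 114, 72.0 and 126 CPM in ΔTreg mice. Myoz2 had 9.77 and 9.80, 9.37, 6.18 and 15.3, 14.8, 7.88 and 19.7, and 9.52, 6.50 and 11.3 CPM in the same order. Neither passed a comparison (in ΔLTreg against control, log2 fold change 0.89 ± 0.35 with an adjusted p of 0.179 by edgeR for Mybpc1 and 0.54 ± 0.40 with 0.509 for Myoz2).

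Of the 8 filament and scaffold genes that all fibre types use, 3 rose in ΔLTreg against control (Des, Tpm1 and Tpm2), the 3 that smooth muscle also expresses, and 0 passed in ΔTreg against control, where 1.86% and 12.1% of all genes rose. The call of Tpm2 was lost with DESeq2, edgeR on the 2 groups alone, library size only, the filter of 10 counts and 10 of the 11 fits without 1 mouse, in all but that without ΔLTreg replicate 2. The call of Des was lost with edgeR on the 2 groups alone and without control replicate 1 or 2 or ΔLTreg replicate 1 or 3. Tpm1, a tropomyosin, had 773 and 806 CPM in control, 801, 786 and 817 CPM in ΔETreg, 1220, 937 and 1201 CPM in ΔLTreg and 864, 857 and 919 CPM in ΔTreg mice. Its change was small and even (log2 fold change 0.50 ± 0.10 SE in ΔLTreg against control, adjusted p = 0.0237 by edgeR), and it was lost without control replicate 1 (adjusted p = 0.127) or 2 (adjusted p = 0.0909) and with edgeR on the 2 groups alone (adjusted p = 0.218). The 7 smooth muscle markers summed to 551 and 592 CPM in the same control mice and to 684, 642 and 592 CPM in the ΔLTreg mice. In ΔLTreg against control 2 of the 7 rose (Cnn1 and Myh11) and 0 fell, where 1.86% of all genes rose. The 7 did not move together: 5 had log2 fold changes above 0, and Acta2 (-0.26) and Tagln (-0.33) lay below 0. Their part in the change of Tpm1 was not tested. In ΔTreg against ΔLTreg Tpm1 was lower (-0.35 ± 0.09, adjusted p = 0.0251 by edgeR), which was lost without ΔLTreg replicate 1 (adjusted p = 0.0589) or 3 (adjusted p = 0.0743), without ΔTreg replicate 1 (adjusted p = 0.0856) or 2 (adjusted p = 0.0889) and with edgeR on the 2 groups alone (adjusted p = 0.072). Acta1, the most abundant member per kb of transcript (504 CPM per kb in control), had 714 and 744 CPM in control, 669, 562 and 984 CPM in ΔETreg, 1812, 738 and 2344 CPM in ΔLTreg and 896, 591 and 1210 CPM in ΔTreg mice. With ΔLTreg replicate 2 at the control level its log2 fold change of 1.16 ± 0.43 did not pass (adjusted p = 0.158 by edgeR), and it did without that mouse (adjusted p = 0.0261). The giant proteins titin (Ttn) and nebulin (Neb), the Z-disc protein Actn2 and the calcium release channel Ryr1 had log2 fold changes of 0.69, 0.71, 0.87 and 0.77 in ΔLTreg against control, and none of the 4 passed in any comparison.

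Of the genes of energy supply, Ckm, Eno3 and Pygm were highest in ΔLTreg replicate 3 and Mb in ΔLTreg replicate 1. Ckm, the muscle creatine kinase, had 100 and 125 CPM in control, 127, 98.5 and 145 CPM in ΔETreg, 384, 145 and 518 CPM in ΔLTreg and 195, 157 and 272 CPM in ΔTreg mice. Its log2 fold change against control was 1.63 ± 0.43 SE in ΔLTreg (adjusted p = 0.0595 by edgeR) and 0.88 ± 0.42 in ΔTreg (adjusted p = 0.163), and against ΔETreg the ΔLTreg mice were higher (1.5 ± 0.37, adjusted p = 0.0386), a call lost in 9 of the 11 fits without 1 mouse. That call was also lost with DESeq2 (adjusted p = 0.0673) and with edgeR on the 2 groups alone (adjusted p = 0.0991). Eno3, the muscle enolase, had 52.6 and 55.9 CPM in control, 165, 67.8 and 197 CPM in ΔLTreg and 77.4, 59.9 and 96.2 CPM in ΔTreg mice, with a log2 fold change of 1.40 ± 0.38 in ΔLTreg against control (adjusted p = 0.0628). Its call against ΔETreg (1.35 ± 0.33, adjusted p = 0.0361) was lost with DESeq2 (adjusted p = 0.0729), with edgeR on the 2 groups alone (adjusted p = 0.0997) and in 6 of the 11 fits without 1 mouse. Mb, the oxygen carrier myoglobin, had 3.40 and 4.82 CPM in control, 5.19, 3.81 and 5.57 CPM in ΔETreg, 35.1, 13.7 and 14.6 CPM in ΔLTreg and 17.9, 17.2 and 8.13 CPM in ΔTreg mice. It rose in both P13 groups (log2 fold change 2.37 ± 0.48, adjusted p = 0.0213, and 1.81 ± 0.48, adjusted p = 0.0202, by edgeR), though both calls were lost without either control mouse (adjusted p up to 0.146 and 0.12), and the second also without ΔTreg replicate 1 (adjusted p = 0.0596) or 2 (adjusted p = 0.058). The call of Mb in ΔLTreg was also lost with edgeR on the 2 groups alone (adjusted p = 0.106). Exons of Mb overlap Apol6 on the opposite strand. Pygm, the muscle glycogen phosphorylase, had log2 fold changes of 1.17 in ΔLTreg and 0.57 in ΔTreg against control and passed neither.

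A further 58 muscle genes that are not among the 40, of which 56 passed the filter showed these counts. In ΔLTreg against control 3 rose (Cacng1, Lmod2 and Phkg1) and 0 fell, in ΔTreg against control 0 rose and 3 fell (Myl4, Megf10 and Pax3), and in ΔTreg against ΔLTreg 14 were lower and 0 higher. Among all genes, 1.86% rose and 2.69% fell in the first of these comparisons, 12.1% and 9.39% in the second, and 10.7% were higher and 6.11% lower in the last. Their median log2 fold changes were 0.932, 0.165 and -0.656. In ΔLTreg against ΔETreg, which differ in age as well, 11 were higher and 1 lower (Sln), against 3.12% and 3.27% of all genes. In the sarcomere assembly list, 1 of 19 rose and 0 fell in ΔLTreg against control. In the lists for calcium release, neuromuscular junction, satellite cells and myoblasts, and metabolism, 1 of 10, 0 of 8, 0 of 7 and 1 of 12 rose. Atp2a2, the calcium pump that slow fibres share with many other cell types, was at 347 to 405 CPM in all 11 mice. Trdn, a partner of the calcium release channel, had 42.0, 16.6 and 59.4 CPM in ΔLTreg against 16.6 and 19.5 CPM in control mice. The sarcomere proteins Myom1 and Nrap, the acetylcholine receptor subunits Chrna1 and Chrnb1 and the glycolytic enzyme Pfkm passed neither comparison with control, and neither did Fbxo32, a ubiquitin ligase of muscle atrophy (log2 fold change 0.29 ± 0.09 SE in ΔLTreg, adjusted p = 0.0944, and 0.27 ± 0.09 in ΔTreg, adjusted p = 0.056, by edgeR). Megf10, a receptor of satellite cells, had 9.25 and 6.93 CPM in control and 4.42, 3.15 and 3.96 CPM in ΔTreg mice (-1.08 ± 0.24, adjusted p = 0.00758 by edgeR), and Pax3, which melanocytes also express, fell as well (-0.58 ± 0.16, adjusted p = 0.0264).

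The 38 genes did not all follow one pattern over the 11 mice. Correlated with the mean log2 CPM of all 38, to which each contributes, Casq1 (Pearson r = 0.97), Tpm1 (0.967) and Eno3 (0.964) stood highest and Myh7 (0.195), Tnnt1 (0.249), Myh3 (0.268), Myh2 (0.307) and Myh8 (0.367) lowest. Outside the lists, the 5 genes most like that mean were Srl (0.975), Rbfox1 (0.974), Dusp27 (0.972), Myo18b (0.972) and Bin1 (0.968). These values describe 11 libraries that share the groups and carry no test.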

How the data were processed

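Whole-skin RNA from 4 mm biopsies was sequenced as 150 bp paired-end reads. According to the submitters' processing notes, reads were trimmed with Trimmomatic 0.36, mapped to GRCm38 with STAR 2.5.2b and counted per gene with featureCounts (Subread 1.5.2). The annotation release and the strand setting are not given in the sources used here. The authors deposited raw counts without normalization or filtering for 49315 genes, and 0 columns of per-sample values were left unmapped. Groups and samples came from the labels, and replicates were numbered in accession order. Mice were separate animals, of both sexes by the study's methods.

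Counts were filtered with filterByExpr by group, scaled by TMM and fitted in 1 model over 11 libraries with edgeR 4.0.16 (R 4.3.3; quasi-likelihood test, Benjamini-Hochberg over 18375 genes). The study's DESeq2 test (1.42.0) was an alternative, beside the 2 groups alone, 2 other scalings, 2 filters and each mouse left out in turn. Standard errors were derived from each log2 fold change and its F statistic. With 2 or 3 mice a group, p-values rest on the model's assumptions. CPM use TMM-scaled library sizes, and log2 CPM a prior count of 2. Lengths are those of the longest coding GENCODE M21 transcript. The tests were run first on simulated counts with known changes. Reads carry no molecular identifiers. Genes and lists were chosen with earlier results of these data known, so their patterns are not independent support. Full statistics are given for the 6 myosin heavy chains, Myod1, Myog and the 2 most abundant genes of each other role list, and for other members that passed a test where named. Of the lists outside the 40 genes, the 2 most abundant genes each and those called against control are named, and genes called between depletion groups only in part.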

Additional observations from a re-analysis of the deposited data

Results flagged for a closer look

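Genes with full statistics that differed between ΔTreg and ΔLTreg, or between ΔLTreg and ΔETreg, were taken for a closer look (edgeR, Benjamini-Hochberg adjusted p under 0.05). In ΔTreg against ΔLTreg, both taken on P13 by the study's text, the log2 fold change was -4.26 for Actc1, -3.11 for Myh8, -2.91 for Myh3, -2.07 for Myh4, -2.04 for Myh7, -1.99 for Myog, -1.56 for Myod1 and -0.35 for Tpm1. Each was lower in the mice that had received DT on P6 and P8 as well. In ΔLTreg against ΔETreg, which also differ in age, it was 5.27 for Myh4, 3.72 for Actc1, 2.09 for Myh1, 1.55 for Myog, 1.5 for Ckm, 1.35 for Eno3 and 0.48 for Tpm1. Without at least 1 of the mice the calls of Myh4, Myh7, Myod1 and Tpm1 in the first comparison and those of Myh1, Ckm, Eno3 and Tpm1 in the second were lost. For Tpm1 in the second this was ΔETreg replicate 2 (adjusted p = 0.0686), and edgeR on the 2 groups alone also lost it (adjusted p = 0.0651). With at most 3 mice in a group, no single mouse was tested as an outlier.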

How the results depend on the processing

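Of 35 results past the threshold that were followed for this count, 14 kept it under all alternatives and without each mouse in turn, among them Myh8 in its 3 comparisons with ΔTreg, Myh4 in ΔLTreg against control and ΔETreg, and Actc1 and Myog in ΔTreg against ΔLTreg. The 35 do not hold every call named in the text. They leave out Actn3, Tpm2 and Des, whose lost calls are given above. They also leave out genes outside the 40, such as Mymk, Mymx, Myl4, Megf10 and Pax3, for which no alternatives are given. The number of the 40 genes called changed by over 1.5 times as follows, and the cause was not tested. In ΔLTreg against control it was 8, with 1 by edgeR on the 2 groups alone, 32 with no filter beyond 1 count, and 1 to 25 without 1 mouse. In ΔTreg against control it was 6, with 14 by DESeq2, 12 on the 2 groups alone, 21 with no filter and 3 to 11 without 1 mouse. In ΔTreg against ΔLTreg it was 13, with 8, 6, 38 and 7 to 32. In ΔLTreg against ΔETreg it was 18, with 6 on the 2 groups alone, 34 with no filter and 4 to 29 without 1 mouse. In ΔTreg against ΔETreg it was 7, with 12, 11, 20 and 4 to 11. Other scalings and a filter of 10 counts in every library stayed within 1.5 times. Myosin shares by raw counts or without Myh7, and the summed level without Tpm1, Tpm2 and Des or without its 2 most abundant genes, moved by less than the spread among mice; leaving out mice for the summed level was chosen after seeing the data. Leaving out 1 mouse turned the sign of these uncalled log2 fold changes: Myh1 in ΔTreg against ΔLTreg (-0.98 to 0.18), Myh2 in ΔLTreg against control (-0.0485 to 0.526) and ΔETreg (-0.51 to 0.49), Myh3 in ΔLTreg against control (-0.0351 to 1.3), Myh7 in ΔLTreg against ΔETreg (-0.0656 to 0.661), and Myod1 (-0.867 to 0.0888) and Myoz2 (-0.299 to 0.0903) in ΔTreg against control. No paired analysis was possible because replicate numbers were given in accession order and pair no mice. Myl2 and Myl3 were too low to test.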

Other observations

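Genes that newly forming fibres use were followed in the single ΔLTreg mice, a set chosen after their values were seen. Mymk and Mymx, which encode the membrane proteins that fuse myoblasts, had 4.14, 3.65 and 1.03 CPM and 0.894, 0.706 and 0.251 CPM in ΔLTreg replicates 1, 2 and 3, compared with at most 0.841 and 0.210 CPM in the other 8 mice. Tested with edgeR and Benjamini-Hochberg adjustment, Mymk was higher in ΔLTreg than in ΔETreg (log2 fold change 3.72 ± 0.62 SE, adjusted p = 0.00723) and lower in ΔTreg than in ΔLTreg (-3.35 ± 0.59, adjusted p = 0.00261), and Mymx moved likewise (2.79 ± 0.60, adjusted p = 0.0219, and -2.91 ± 0.59, adjusted p = 0.00653). ΔLTreg and ΔETreg differ in age as well. Against control neither Mymk nor Mymx passed in ΔLTreg (smallest adjusted p of their list 0.069 by edgeR) or in ΔTreg. Myl4, the embryonic light chain, had 25.6, 21.8 and 7.23 CPM in the 3 ΔLTreg mice, 12.0 and 7.25 CPM in control and 4.55, 2.70 and 3.65 CPM in ΔTreg mice. It was lower in ΔTreg than in ΔLTreg (-2.34 ± 0.41, adjusted p = 0.00261) and than in control (-1.42 ± 0.45, adjusted p = 0.045).

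The fetal acetylcholine receptor subunit Chrng took 63.2%, 78.5% and 13.5% of the sum of Chrng and its adult counterpart Chrne, per kb, in ΔLTreg mice. It took 66.6% and 22.5% in the 2 control mice, 19.9% to 40.4% in ΔETreg mice and 4.62% to 30.4% in ΔTreg mice. These shares rest on few raw counts: Chrng and Chrne had 44 and 7 in ΔLTreg replicate 2, 2 and 4 in control replicate 2 and 1 and 12 in ΔTreg replicate 3. The highest level of Chrng was 2.12 CPM and that of Chrne 1.28 CPM. Set against Acta1 counts, Actc1 had 25.1, 63.2 and 3.23 counts per 1000 in ΔLTreg mice and 0.996 to 11.5 in all other mice, while Myh4 had 92.4, 105 and 117 per 1000 in the same ΔLTreg mice. Set against Acta1, Actc1 and Myh3 (10.9, 37.6 and 2.99 per 1000) thus differed widely among these mice. Myh4 and the perinatal chain Myh8 (284, 359 and 203 per 1000) differed less on this scale. In CPM, Myh4 also differed among them, as given above. ΔLTreg replicate 2, with the least muscle of its group, held the highest shares of Myh3, Myh8, Actc1 and Chrng among the 3.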
